A study of Mus musculus with 6 samples.

Results

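The mevalonate arm is the stretch of cholesterol synthesis that runs from acetyl-CoA to the first branch points of isoprenoid chemistry. In this pathway acetyl-CoA units are joined and reduced to mevalonate, mevalonate is phosphorylated and decarboxylated to the isoprene unit isopentenyl diphosphate, and isoprene units are joined into farnesyl diphosphate. Farnesyl diphosphate then goes to squalene and the sterols, or is lengthened to geranylgeranyl diphosphate, the lipid that anchors many small GTPases to membranes. The same isoprene units are used for ubiquinone, for dolichol and for a modified base of the selenocysteine tRNA, which is why the arm is of interest in ferroptosis, a death driven by iron-dependent lipid peroxidation. Most genes of the arm are known targets of SREBP2, a transcription factor released from the endoplasmic reticulum when sterols are low. The 9 genes described here, Acat2, Hmgcs1, Mvk, Pmvk, Mvd, Idi1, Fdps, Ggps1 and Fdft1, were chosen by symbol from the pathway, and all 9 were found among the 43346 rows of the deposited count table. They and the related gene lists below were chosen with earlier results of these data known.

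RNA was sequenced from primary fibroblasts cultured from C57BL/6 mouse embryos (MEFs), at passage 9 in both groups. One group was exposed to 3 µM erastin, an inhibitor of the cystine/glutamate antiporter used to induce ferroptosis, and the other received DMSO, with RNA taken after 24 h; each group had 3 libraries. All cells grew in medium with 10% serum, nonessential amino acids, antibiotics and 2-mercaptoethanol, for which the labels state 55 mM, and no genetic change is listed for either group. Primary MEFs are a mixed culture with a limited life span. The labels do not say whether replicates came from separate embryos or cultures, so p-values measure the spread between these samples, which may be technical.

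Libraries held 13333911 to 20509970 counted reads. Of 14000 genes tested, 43.1% passed at an adjusted p-value under 0.05, 21.5% lower and 21.6% higher with erastin. In 52.5% of tested genes the library values of the groups did not overlap. Of 11 fibroblast marker genes tested, 9 were lower with erastin; their summed level ran from 35830 to 38830 CPM with DMSO, against 25700 to 27150 CPM after erastin. All 5 epithelial and all 5 hepatocyte markers stayed under 1 CPM, with Afp and Serpina1a at 0 in all 6 libraries. The summed endothelial markers were at 4.71 to 7.10 CPM with DMSO, against 13.3 to 16.6 CPM after erastin. That rise lay in 2 of the 5 genes, Kdr and Tek, while the defining markers Pecam1, Cdh5 and Tie1 were too low to be tested. Of 5 skeletal muscle markers only Des was tested, and it was higher, with the list at 35.7 to 45.4 CPM with DMSO, against 65.1 to 68.5 CPM after erastin; none of 5 macrophage markers passed, at sums of 11.4 to 16.7 and 9.49 to 17.9 CPM. The part of these markers in the results below was not tested. In bulk RNA, fewer cells of a type and less RNA per cell cannot be told apart.

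Promoter sequences are shown for the 3 genes whose values carry the results: Hmgcs1 and Mvk, with falls of about 4-fold, and Ggps1, the member that rose. Each window, from RefSeq on GRCm38.p6, runs from 250 bases before to 50 bases after the start site. They lie at chr13:119690101-119690400 (plus strand), chr5:114444019-114444318 (plus strand) and chr13:14063439-14063738 (minus strand). Capitals mark matches on either strand to the sterol regulatory element TCACNCCAC, the CCAAT box and the GC box GGGCGG, none of which overlap each other here.
Hmgcs1: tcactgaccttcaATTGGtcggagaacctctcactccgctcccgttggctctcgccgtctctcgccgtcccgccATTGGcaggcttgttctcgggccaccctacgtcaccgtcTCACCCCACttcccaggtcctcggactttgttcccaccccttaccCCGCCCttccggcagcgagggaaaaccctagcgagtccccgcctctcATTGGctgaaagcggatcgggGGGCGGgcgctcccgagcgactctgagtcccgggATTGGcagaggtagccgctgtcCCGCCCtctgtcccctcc
Mvk: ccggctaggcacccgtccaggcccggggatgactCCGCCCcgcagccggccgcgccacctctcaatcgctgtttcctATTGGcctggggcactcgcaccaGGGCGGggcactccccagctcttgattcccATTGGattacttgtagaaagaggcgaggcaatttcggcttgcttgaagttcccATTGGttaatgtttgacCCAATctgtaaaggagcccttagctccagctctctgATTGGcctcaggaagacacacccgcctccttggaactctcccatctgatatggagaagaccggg
Ggps1: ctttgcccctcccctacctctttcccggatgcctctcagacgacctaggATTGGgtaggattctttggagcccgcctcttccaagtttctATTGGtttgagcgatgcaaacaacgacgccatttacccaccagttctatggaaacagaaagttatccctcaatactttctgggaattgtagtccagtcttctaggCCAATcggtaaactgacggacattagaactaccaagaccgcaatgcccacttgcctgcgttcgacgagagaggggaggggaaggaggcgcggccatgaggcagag

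RefSeq windows were at hand for 7 of the 9 members, with 2 start sites for Pmvk; Fdps and Fdft1 were not matched. The sterol regulatory element, the site through which SREBP proteins act, matched in 1 of the 7 genes, Hmgcs1, and in 1.24% of 32851 promoter windows of the same length. A CCAAT box, the site of the factor NF-Y, was present in 6 of the 7, all but Acat2, against 37.4% of all windows. A GC box, bound by SP-family factors, was found in 5 of the 7, Acat2, Hmgcs1, Mvk, Mvd and Idi1, against 35.7% of all windows. Mvk held 5 CCAAT boxes, Hmgcs1 4, Ggps1 3, Mvd and Idi1 2 each, and the first Pmvk window 1. Ggps1 had no GC box in this window, and neither did Pmvk. The member counts are by gene, with Pmvk counted if either window matched, while the background shares are by window. The second Pmvk window held no match to any of these motifs. A match is a string of letters and not a measured binding site. Only exact matches to these strings were sought, so a window without a match is not shown to lack a site.

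**Figure D1:**
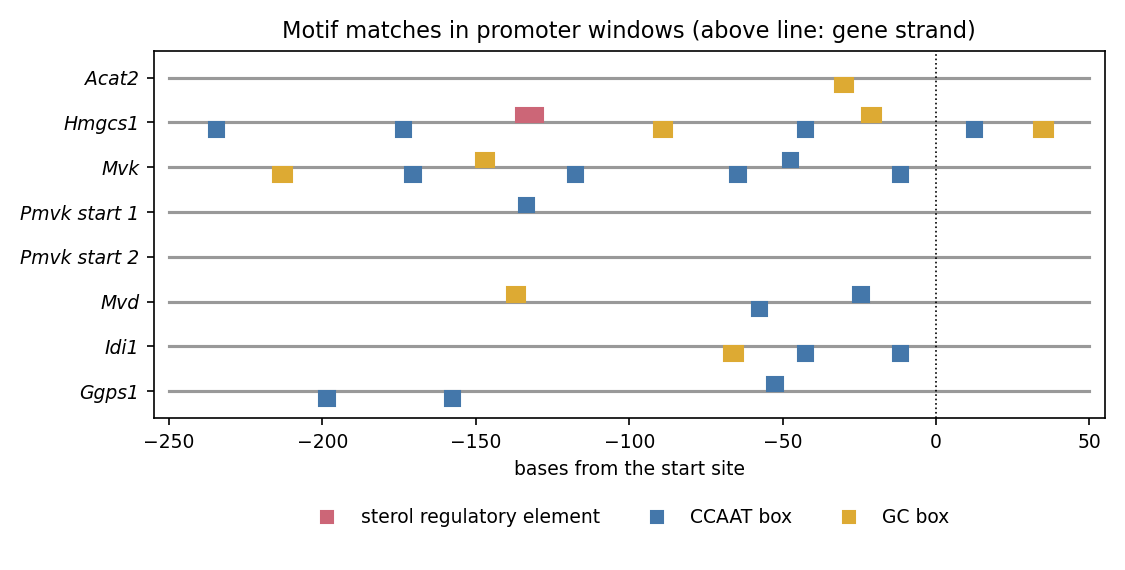
Motif matches in the 8 promoter windows of 7 members, by distance in bases from the start site (dotted line at 0); boxes above a line match the gene's strand and boxes below it the opposite strand. The only sterol regulatory element match, in Hmgcs1, begins 137 bases before the start, and CCAAT boxes occur in every gene shown but Acat2.

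With erastin 8 of the 9 genes fell and 1, Ggps1, rose, each past the 0.05 threshold of edgeR's quasi-likelihood test after adjustment, where 21.5% of all tested genes fell and 21.6% rose. The library values of the groups overlapped for none of the 9, against 52.5% of all tested genes without overlap (25.8% with erastin below and 26.7% above). The median log2 fold change of the members was -1.27 and that of all tested genes was -0.0014. The members ranged from -2.01 for Mvk, close to Hmgcs1 at -1.98, to 0.61 for Ggps1; the order of Mvk and Hmgcs1 changed between alternatives. All 9 passed the filter on low counts. Expression is given below in CPM, reads of the gene scaled to the library's normalized total, and fold changes compare erastin with DMSO.

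The arm opens with Acat2 (chr17:12942890-12960747, minus strand in mm10), whose cytosolic enzyme joins acetyl-CoA units into acetoacetyl-CoA. It stood at 42.5, 44.7 and 40.2 CPM in DMSO replicates 1, 2 and 3, and at 16.8, 17.7 and 18.4 CPM in erastin replicates 1, 2 and 3. Every DMSO library stood above every erastin library, and the log2 fold change was -1.27 (edgeR SE 0.11, adjusted p = 5.67e-07). Hmgcs1 (chr13:119690379-119708260, plus strand) encodes the next enzyme, cytosolic HMG-CoA synthase. Its levels were 139, 149 and 151 CPM with DMSO, against 36.8, 35.0 and 38.9 CPM after erastin. The fall was nearly 4-fold, with a log2 fold change of -1.98 (edgeR SE 0.08, adjusted p = 7.99e-10), the smallest p-value among the members, and the 3 libraries of each group lay close together.

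Mvk, Pmvk and Mvd act in turn on mevalonate. Mvk (chr5:114444269-114460591, plus strand), mevalonate kinase, adds the first phosphate. It was at 52.1, 46.6 and 48.0 CPM with DMSO, against 13.3, 11.5 and 11.7 CPM after erastin, a 4.02-fold fall (log2 fold change -2.01, edgeR SE 0.12, adjusted p = 1.23e-08). The second phosphate is added by the product of Pmvk (chr3:89454541-89469013, plus strand), phosphomevalonate kinase. Pmvk was at 15.0, 9.37 and 11.8 CPM with DMSO, against 7.87, 6.11 and 9.18 CPM after erastin. Here DMSO replicate 2 lay barely above erastin replicate 3, and the fall, of 0.64 on the log2 scale (SE 0.23), was the smallest of the 8 and had the largest p-value (edgeR adjusted p = 0.0356). It no longer passed without DMSO replicate 1 (0.175), DMSO replicate 3 (0.0506), erastin replicate 1 (0.0857) or erastin replicate 2 (0.129), nor with scaling by total count (0.0589) or after an offset for GC content and length (0.111), the values in brackets being adjusted p-values of edgeR; with DESeq2 included they ran from 0.0188 to 0.175 over all alternatives. Mvd (chr8:122433601-122443422, minus strand) encodes mevalonate diphosphate decarboxylase, which forms isopentenyl diphosphate. It was at 35.9, 42.0 and 38.7 CPM with DMSO, against 11.1, 13.4 and 15.5 CPM after erastin (log2 fold change -1.55, edgeR SE 0.14, adjusted p = 7.01e-07), so the groups stood well apart.

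Idi1 (chr13:8885501-8892451, plus strand) interconverts isopentenyl diphosphate and its isomer, dimethylallyl diphosphate. It was the least counted member, with 95 to 182 reads in DMSO and 59 to 73 reads in erastin libraries. Its levels were 12.0, 10.1 and 7.39 CPM with DMSO, against 2.84, 3.53 and 3.79 CPM after erastin. The fall of 1.54 on the log2 scale had the largest error of the 9 (edgeR SE 0.26, adjusted p = 0.000274). Fdps (chr3:89093588-89101959, minus strand), farnesyl diphosphate synthase and the target of bisphosphonate drugs, was at 65.3, 57.6 and 75.0 CPM with DMSO, against 24.2, 31.3 and 29.8 CPM after erastin. It fell by 1.21 on the log2 scale (edgeR SE 0.12, adjusted p = 1.88e-06).

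At the branch after farnesyl diphosphate the genes moved in opposite directions. Fdft1 (chr14:63145150-63179578, minus strand) encodes squalene synthase, the step that commits farnesyl diphosphate to sterols. It was at 66.9, 65.7 and 64.8 CPM with DMSO, against 37.0, 35.5 and 42.1 CPM after erastin, a fall of 0.78 on the log2 scale (edgeR SE 0.10, adjusted p = 1.25e-05). Ggps1 (chr13:14050659-14063488, minus strand) encodes geranylgeranyl diphosphate synthase, which takes farnesyl diphosphate away from sterols. Ggps1 was at 23.7, 22.2 and 25.4 CPM with DMSO, against 39.3, 34.4 and 34.9 CPM after erastin. Every erastin library was above every DMSO library, and the rise was 1.53-fold (log2 fold change 0.61, edgeR SE 0.12, adjusted p = 0.000683). It was smaller, at 0.40, after the offset for GC content and length (edgeR adjusted p = 0.0158, within a range of 3.85e-05 to 0.0226 over the alternatives).

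**Figure D2:**
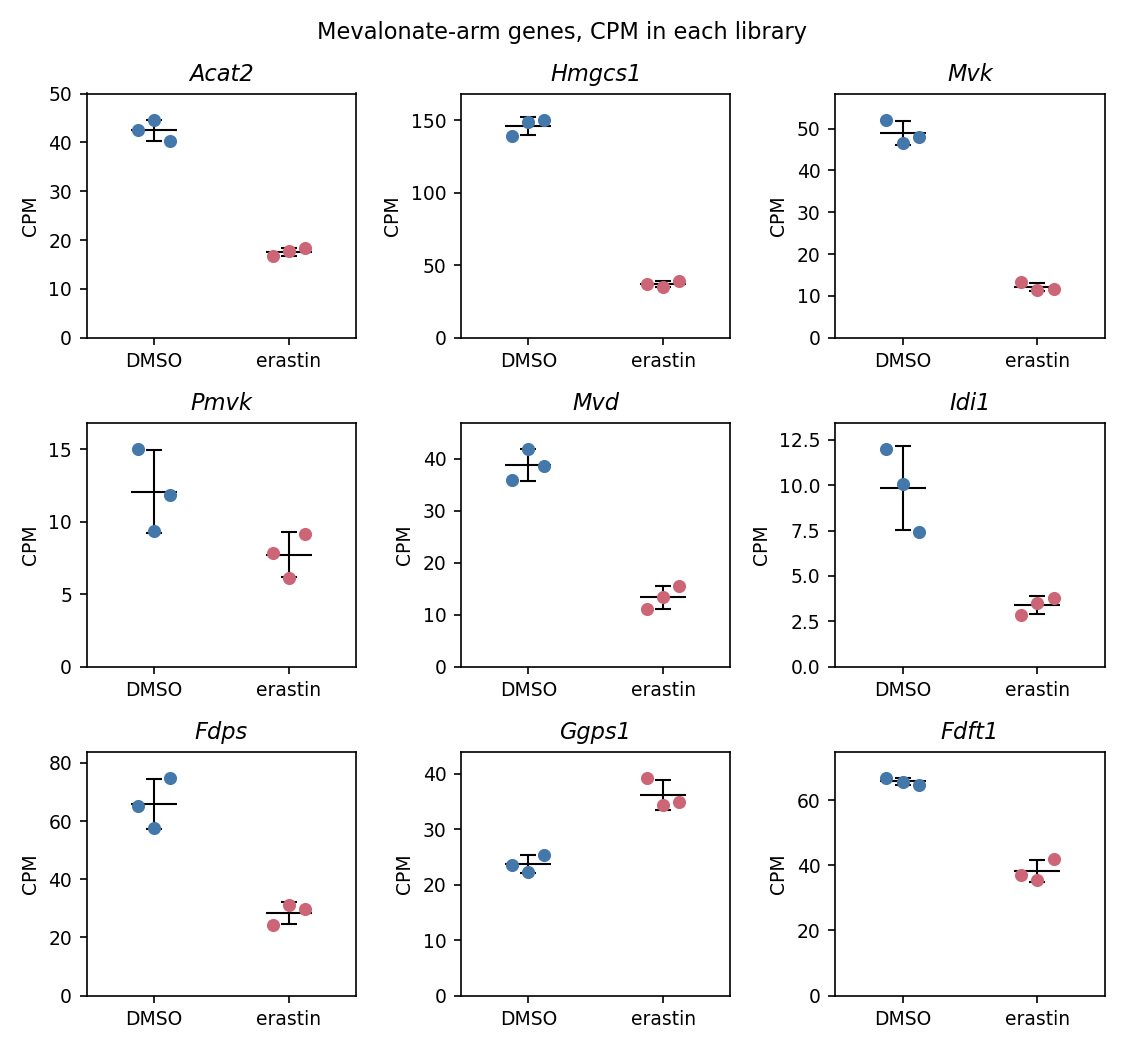
CPM of the 9 genes in each of 3 DMSO (blue) and 3 erastin (red) libraries; black marks are means with SD (n = 3), every vertical axis starts at 0 and scales differ. Ggps1 is the only gene whose erastin libraries (34.4 to 39.3 CPM) lie above its DMSO libraries (22.2 to 25.4 CPM), and in Pmvk the groups come closest.

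To compare levels between genes, CPM was divided by the length of the gene's merged exons in kilobases. On this scale Hmgcs1 was the most abundant member in DMSO, at 31.8 ± 1.36 CPM per kb (SD, n = 3). Mvd (20.9 ± 1.64), Mvk (18.3 ± 1.07), Acat2 (16.7 ± 0.872), Fdps (15.7 ± 2.07) and Fdft1 (15.6 ± 0.250) followed in CPM per kb. Neighbours in the order among these 5 overlapped in their library values. Pmvk (7.05 ± 1.66), Ggps1 (5.03 ± 0.334) and Idi1 (2.81 ± 0.662) were the lowest and did not overlap their neighbours in the order. Hmgcs1 and Idi1 were thus at the ends of the order.

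With erastin the order was different. Fdft1 came first at 9.03 ± 0.812 CPM per kb, then Hmgcs1 at 8.04 ± 0.428, Ggps1 at 7.67 ± 0.575, Mvd at 7.17 ± 1.16, Acat2 at 6.92 ± 0.324 and Fdps at 6.76 ± 0.887 (SD, n = 3 each). Neighbours among these 6 overlapped in their library values, and Fdps did not overlap Mvk, which came next. Mvk, at 4.54 ± 0.366, and Pmvk, at 4.51 ± 0.90, overlapped each other below them, and Idi1 was last at 0.966 ± 0.140 CPM per kb. Ggps1 thereby moved from rank 8 to rank 3 and Mvk from rank 3 to rank 7. With the length of the longest transcript in place of merged exons, Hmgcs1 was first in both groups and Ggps1 moved from rank 8 to rank 4. Mvk then moved from rank 4 to rank 8. Fdps was at rank 2 with DMSO and rank 3 with erastin, against ranks 5 and 6 with merged exons. The order of the middle members thus depended on the length used.

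Summed over the 9 genes the length-scaled level was 132 to 135 CPM per kb with DMSO, against 53.8 to 59.2 CPM per kb after erastin. Ggps1 made up 3.56% to 3.99% of that sum with DMSO, and 12.5% to 15.5% of it after erastin. The share of Hmgcs1 went the other way, from 23.8% ± 1.09 to 14.5% ± 0.377 (SD, n = 3). Acat2 kept a share of 12.5% ± 0.777 in DMSO and 12.5% ± 0.391 in erastin libraries. The ratio of Ggps1 to Fdft1, the enzymes that compete for farnesyl diphosphate, was 0.317, 0.303 and 0.351 in DMSO replicates 1, 2 and 3. In erastin replicates 1, 2 and 3 it was 0.952, 0.868 and 0.743. The groups did not overlap in this ratio, which was chosen after the values were seen and was not tested.

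**Figure D3:**
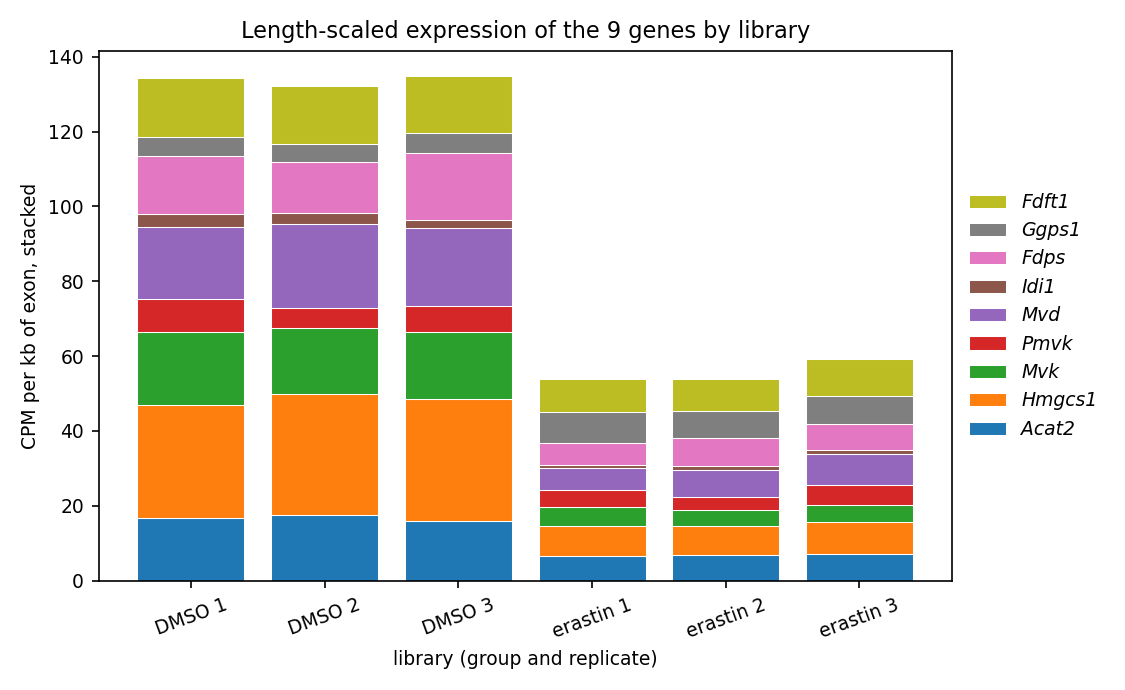
Length-scaled expression (CPM per kb of merged exons) of the 9 genes stacked in each of the 6 libraries. The DMSO stacks reach 132 to 135 and the erastin stacks 53.8 to 59.2, and the Ggps1 segment is the one that is taller with erastin.

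Several members overlap another gene or start close to one. Mvk has a divergent partner, Mmab, which makes an enzyme of vitamin B12 metabolism and starts 209 bases away on the other strand, with no overlap. Mmab was at 20.5, 27.5 and 24.9 CPM with DMSO, against 18.5, 13.8 and 16.1 CPM after erastin. It fell too, by 0.59 on the log2 scale (edgeR SE 0.16, adjusted p = 0.00752); the difference from the fall of Mvk was not tested. Ggps1 overlaps its own divergent partner Arid4b, a chromatin protein gene, over 257 bases at the start of both. Arid4b was at 20.02, 23.3 and 29.2 CPM with DMSO, against 63.1, 58.5 and 66.6 CPM after erastin, a rise of 1.38 on the log2 scale (edgeR SE 0.13, adjusted p = 7.22e-07). In each of the 2 divergent pairs measured the partner moved in the direction of the member. Of all tested genes 21.5% fell and 21.6% rose, and the likeness within pairs was not tested.

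The strand setting of the counting is not given in the sources used here, so reads from the overlap of Ggps1 and Arid4b cannot be assigned with certainty, and the part of Arid4b reads in the rise of Ggps1 was not tested. Fdft1 overlaps the 3' end of Ctsb, the cathepsin B gene, over 774 bases. Reads from this overlap cannot be assigned with certainty either, and the part of Ctsb reads in the Fdft1 values was not tested. Ctsb had many more reads, at 735 ± 27.4 CPM with DMSO, against 600 ± 44.8 CPM after erastin (SD, n = 3), and fell by 0.29 on the log2 scale (edgeR SE 0.07, adjusted p = 0.00402). Gm20388, a long annotated gene across Mvd, had 0 reads, and Gm22935, a small nuclear RNA gene inside Fdps, had 2 reads in all. Gm48342 (over Hmgcs1), Gm48574 (at the start of Idi1) and Gm43738 (over Fdps) had no row in the counts used here and were not analysed.

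**Figure D4:**
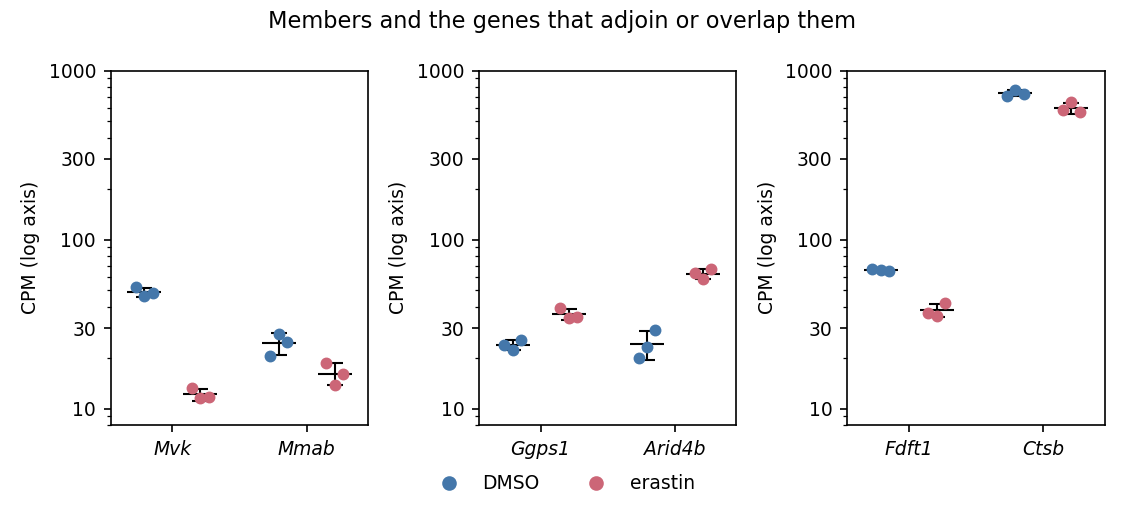
CPM on a log axis of Mvk and Mmab, Ggps1 and Arid4b, and Fdft1 and Ctsb in 3 DMSO (blue) and 3 erastin (red) libraries; black marks are means with SD (n = 3). Arid4b libraries lie at 58.5 to 66.6 CPM with erastin and 20.02 to 29.2 CPM in DMSO, the same direction as Ggps1, while Mmab and Ctsb are lower with erastin.

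Genes for related enzymes of other compartments were compared with the cytosolic members. Acat1, the mitochondrial thiolase gene, fell from 51.6 ± 2.99 to 26.8 ± 6.84 CPM (SD, n = 3; on the log2 scale -0.94, edgeR SE 0.15, adjusted p = 0.000113), so the fall was not limited to the cytosolic Acat2. Acaa2, another mitochondrial thiolase gene, fell by 0.49 on the log2 scale (edgeR SE 0.12, adjusted p = 0.00426). The isomerase copy Idi2 had at most 1 read in a library. The thiolase copy Acat3 had 3 to 9 reads in DMSO and 0 to 1 in erastin libraries. These 2 were too low to be tested. How reads shared by such copies were counted is not stated.

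All 4 genes listed for the supply of acetyl-CoA to the cytosol fell, where 21.5% of all tested genes fell. Acly, ATP citrate lyase, fell from 357 ± 14.6 to 227 ± 10.0 CPM (SD, n = 3; on the log2 scale -0.65, edgeR SE 0.07, adjusted p = 3.4e-06). Slc25a1, the mitochondrial citrate carrier, fell by 0.67 (edgeR SE 0.09, adjusted p = 1.96e-05) and Acss2, which makes acetyl-CoA from acetate, by 1.09 on the log2 scale (edgeR SE 0.16, adjusted p = 6.31e-05). The median of the 4 genes, which also include the citrate synthase gene Cs, was -0.66. Downstream of squalene, 9 of 11 sterol enzyme genes fell and 0 rose, where 21.5% of all tested genes fell and 21.6% rose. At an unadjusted edgeR p under 0.05 the counts were also 9 and 0, and 0 rose with DESeq2. The median of the 11 was -1.13 between extremes of -1.57 and -0.22 on the log2 scale. Cyp51, Nsdhl and Msmo1 had the smallest p-values, at log2 fold changes of -1.57, -1.53 and -1.22. Ebp and Lbr did not pass. Sqle and Sc5d fell least among the 9 that passed. Sqle fell by 0.28 on the log2 scale (edgeR SE 0.08, adjusted p = 0.0106) and Sc5d by 0.27 (edgeR SE 0.09, adjusted p = 0.0219). Of the 9, Sc5d no longer passed without DMSO replicate 1, DMSO replicate 2 or erastin replicate 1, where edgeR gave adjusted p = 0.0526, 0.108 and 0.0952, nor without the filter on low counts (0.0607) or with scaling by total count (0.0836); its alternatives spanned 0.00192 to 0.108.

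Of 14 tested genes that use isoprenoids, 3 rose, 2 fell and 9 did not pass, and the median log2 fold change was 0.22. These counts are no higher than the background, where 21.6% of all tested genes rose and 21.5% fell. Pggt1b, the catalytic subunit of the enzyme that attaches geranylgeranyl groups to proteins, rose from 16.6 ± 1.91 to 24.8 ± 3.85 CPM (SD, n = 3; on the log2 scale 0.58, edgeR SE 0.15, adjusted p = 0.00674). Dhdds, a subunit of the dolichol-making enzyme, rose by 0.40 on the log2 scale (edgeR SE 0.11, adjusted p = 0.0094). Pggt1b did not pass after the offset for GC content and length (edgeR adjusted p = 0.069, within a range of 0.00132 to 0.0822). Fnta, the subunit shared by the enzymes that attach farnesyl and geranylgeranyl groups, fell by 0.47 on the log2 scale (edgeR SE 0.10, adjusted p = 0.00119). Pdss2, for the ubiquinone side chain, was the remaining gene that rose (log2 fold change 0.68, edgeR adjusted p = 0.0476) and Icmt, which methylates prenylated proteins, the other that fell (log2 fold change -0.27, edgeR adjusted p = 0.0342). Pdss2 no longer passed in 5 of the 6 fits that each left out 1 library, all but that without DMSO replicate 1. Icmt no longer passed without DMSO replicate 1, DMSO replicate 2, erastin replicate 1 or erastin replicate 2. Over the alternatives the edgeR and DESeq2 adjusted p-values ran from 0.0123 to 0.186 for Pdss2 and from 0.00643 to 0.146 for Icmt.

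Of 7 genes of the SREBP machinery 4 were lower and 2 higher, where 21.5% of all tested genes fell and 21.6% rose. Their median log2 fold change was -0.37. Srebf2, which encodes SREBP2, was at 237, 218 and 250 CPM with DMSO, against 122, 126 and 119 CPM after erastin (log2 fold change -0.94, edgeR SE 0.08, adjusted p = 2.07e-07). The erastin libraries were near 0.52 of the DMSO level. Insig1 and Insig2 encode proteins that hold the SREBP complex in the endoplasmic reticulum when sterols are plentiful, and Insig1 is itself a known SREBP target. Insig1 was at 93.7, 81.9 and 69.7 CPM with DMSO, against 32.2, 33.8 and 36.7 CPM after erastin (log2 fold change -1.26, edgeR SE 0.11, adjusted p = 4.91e-07). Insig2 was at 31.4, 23.9 and 28.6 CPM with DMSO, against 57.6, 55.4 and 57.1 CPM after erastin (log2 fold change 1.02, edgeR SE 0.11, adjusted p = 3.79e-06). The ratio of Insig2 to Insig1 counts, not scaled by length, was 0.293 to 0.410 with DMSO, against 1.56 to 1.79 after erastin, without overlap; this ratio too was chosen after the values were seen and was not tested. Srebf1 and Scap were lower, and Mbtps2, a protease that releases SREBP, was higher (log2 fold change 0.54, edgeR adjusted p = 0.00539); the edgeR and DESeq2 adjusted p-values of Mbtps2 ran from 0.00128 to 0.0985, and it did not pass after the offset for GC content and length.

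**Figure D5:**
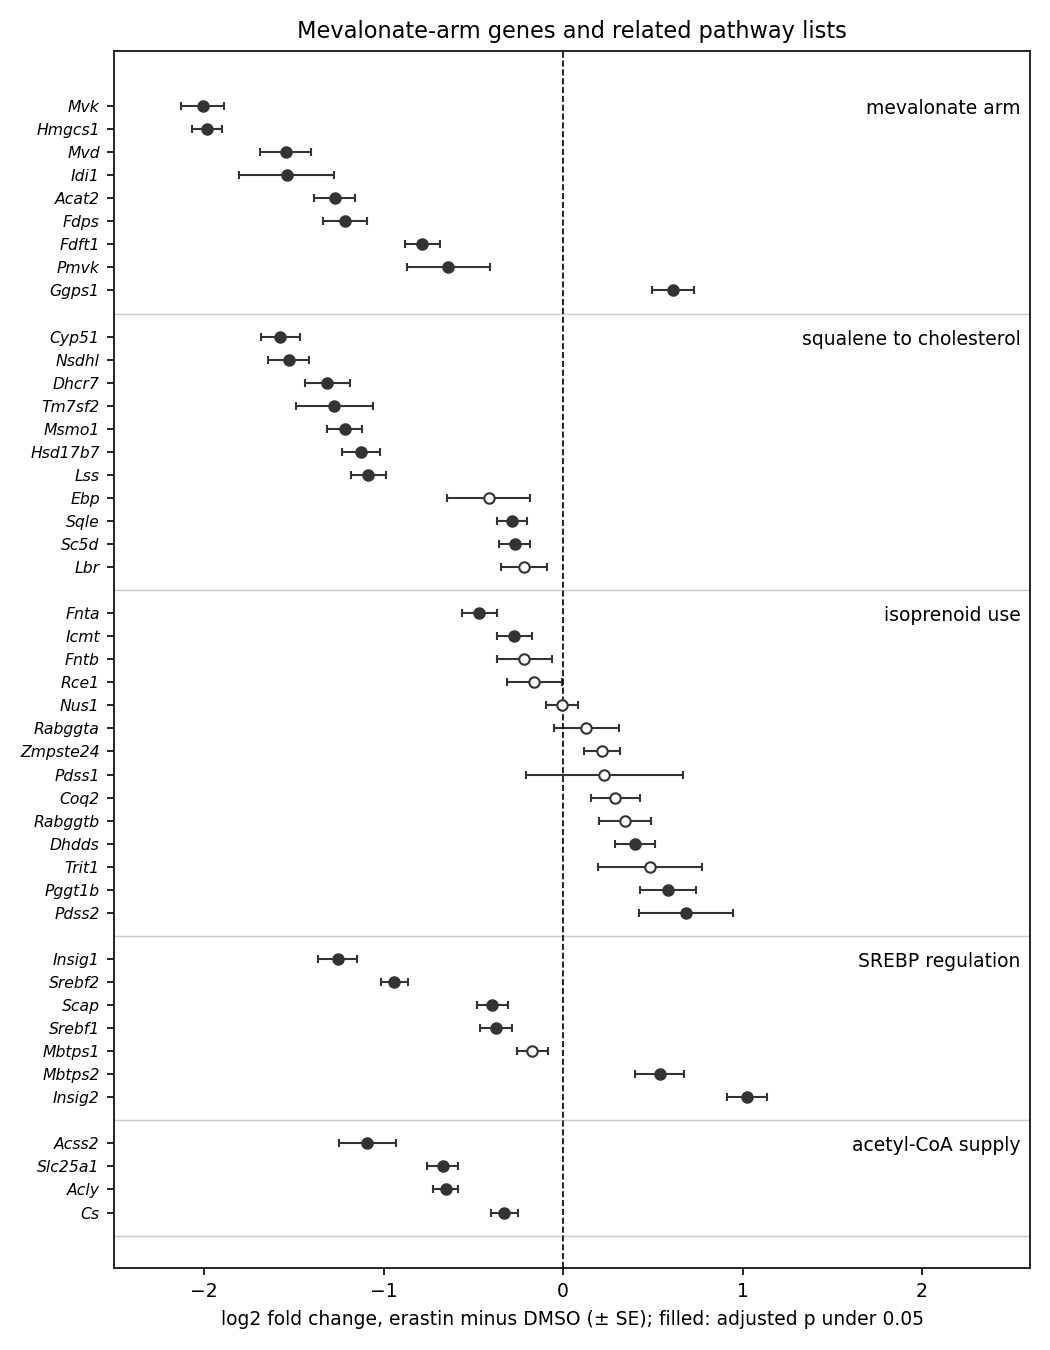
Log2 fold change of erastin minus DMSO with SE for the members and 4 related gene lists; filled points passed at an adjusted p-value under 0.05 and open points did not. In the mevalonate arm all points but Ggps1 lie left of 0, as do all 11 genes from squalene to cholesterol, while the isoprenoid-use genes lie around 0, from -0.47 to 0.68.

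The genes whose pattern over the 6 libraries was most like the median member were found by the root mean square distance between centred log2 CPM values, among tested genes averaging 50 counts or more. They were Ppp1r14a (distance 0.044), Selenoh (0.065), Lurap1l (0.070), Tgfb1i1 (0.074) and C1qtnf6 (0.075), in log2 units. Among the members themselves Acat2 was nearest to the median, at 0.053, and Ggps1 farthest, at 0.957. Ppp1r14a, the nearest of these, fell from 5.39 ± 0.354 to 2.02 ± 0.257 CPM (SD, n = 3). Selenoh, a nuclear selenoprotein gene, fell from 19.5 ± 0.481 to 8.10 ± 0.719 CPM (SD, n = 3). A link of Selenoh to the arm was not tested. The distance is a description over 6 libraries of 2 groups, and any gene that fell by a like amount comes out close.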

How the data were processed

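RNA-seq of 6 MEF libraries (3 DMSO, 3 erastin) was analysed. Per the labels' protocols, total RNA was depleted of ribosomal RNA, heat-fragmented and sequenced on an Ion Proton instrument. The authors deposited whole-number read counts per gene without normalization. The submitters' processing notes name HTSeq 0.9.1, SAMtools and mm10; the aligner, the annotation and the strand setting are not given in the sources used here. Symbols, positions and lengths came from GENCODE M21 (mm10), which matched 42462 of 43346 identifiers without their version. All 6 sample columns were used and 0 were left out.

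Counts were tested over the whole table with edgeR 4.0.16 (R 4.3.3): filterByExpr (minimum count 10, total 15; 14000 genes kept), TMM factors, glmQLFit and glmQLFTest with treatment as the only term. The Benjamini-Hochberg adjustment covered all 14000 genes at a threshold of 0.05. Standard errors used the fit's weights and posterior quasi-dispersion. The procedure was tested on simulated data with fewer changed genes than were called here and the same dispersion for every gene. Its error rates in the setting of these data were not tested. Depth set a floor of 3 counts, worth 0.14 to 0.234 CPM, which covers counting error only. No replicate pair agreed within sampling noise (chi-square per degree of freedom 11.0 to 19.2 within groups), and each library was treated as 1 replicate. Such spread does not show whether libraries came from separate cultures.

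The members and the gene lists were chosen with earlier results of these data known; a few genes of the lists are not reported here and are left out of the lists' counts and medians. Named genes were the members, in each list the 3 genes of smallest p-value, genes overlapping a member or starting within 1000 bases on the other strand, and the 5 genes of most similar pattern; others were named by class of result. Alternatives were RLE, upper-quartile and total-count scaling, no filter, at least 1 CPM in 3 libraries, a replicate block, DESeq2 1.42.0, an offset for GC content and length of the longest transcript (mgcv 1.9.3), alone and with the block, thinning to the smallest library, leaving out each library, and an adjusted p-value under 0.01.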

Additional observations from a re-analysis of the deposited data

How the results depend on the processing

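All 9 members kept their direction in the 16 alternatives run for each, and 8 kept their side of the threshold in all of them. Pmvk, at -0.64, did not pass with scaling by total count only (-0.57), after the GC and length offset (-0.47) or after the offset with the replicate block (-0.48). When each library in turn was dropped, its log2 fold change ran from -0.80 to -0.45, that of Ggps1 from 0.55 to 0.66, that of Mvk from -2.08 to -1.96 and that of Hmgcs1 from -2.02 to -1.95. Hmgcs1 fell more than Mvk after the offset (-2.08 against -1.89; -2.08 against -1.90 with the block), without DMSO replicate 1 and without erastin replicate 3. The count of members lower was 7 or 8 and that of members higher 1 throughout. With the replicate block alone 8 members were lower and 1 higher, Ggps1 stood at 0.61 and 5882 genes passed against 6028 without it; the block ended no call of a member. The labels do not say that a number marks a shared culture. Deviations of equally numbered libraries correlated at 0.0601, 0.00344 and -0.0096, and DMSO replicate 3 was nearest to erastin replicate 2 (0.0539). With 3 libraries per group these values cannot decide whether a number marks a shared culture.

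Of the isoprenoid-use genes, 3 were higher, and 2 to 5 over the alternatives: 5 with scaling by total count only, 4 with the replicate block and without the filter, and 2 with the offset (with or without the block), thinning, upper-quartile factors, an adjusted p-value under 0.01 and without DMSO replicate 3, erastin replicate 1 or erastin replicate 3. The 2 lower were 1 with scaling by total count only, an adjusted p-value under 0.01 and the offset with or without the block, and 1 to 2 when a library was left out. The 9 sterol enzyme genes that were lower were 7 to 10. The 2 SREBP genes that were higher were 1 after the offset, with or without the block. The number of genes passing ran from 4305 to 6104, the lowest with the adjusted p-value under 0.01. Among the other 38 pathway genes tested, 24 kept direction and side in every alternative. None of the 4 whose direction reversed (Nus1, Rce1, Pdss1 and Rabggta) had passed. Nus1, at -0.0058, was 0.013 without the filter, 0.058 with total count only, and between -0.076 and 0.053 when a library was left out. Rce1 was 0.0016 after the offset with the block. When a library was dropped, Pdss1 ran from -0.13 to 0.78 and Rabggta from -0.035 to 0.29, each lowest without DMSO replicate 3. Mmab, Arid4b and Ctsb, examined this way after the data were seen, kept direction and side throughout. The causes were not tested. Idi1 and Pmvk had the fewest reads of the members, at 59 to 199 per library, and the part of depth in their values was not tested.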
